A study of Mus musculus with 2 samples.

Results

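Gzmc, Gzmd, Gzme, Gzmf, Gzmg and Gzmn are 6 neighbouring granzyme genes, described here at the level of single CD8+ T cells taken from mouse tumors. They were matched by gene symbol and make up 6 of the 32285 genes in the tables. They were selected on UMI levels of these libraries, with lean and obese already compared, so the difference between the libraries that is given for them is a description and was not tested. Of the 6 genes, 5 were detected in both libraries and Gzmn was detected in neither.

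The cells were tumor-infiltrating lymphocytes (TIL) from B16 F0 melanoma transplanted into C57Bl/6J mice, enriched with CD8 magnetic beads, sorted by CD8 staining and sequenced with the 10x Genomics droplet method, which counts tagged RNA molecules (UMIs) near the 3′ end of each transcript. The lean library came from male mice of 16 weeks kept on normal chow, and the obese library from male mice of the same age kept on a western diet from weaning. The labels name no transgene or deletion in either group. There was 1 library of each group, and how many mice each held was not stated in the sources used here, so no difference below has a replicate check and every interval covers counting error only. After cells with 7.5% or more mitochondrial UMIs, and those outside 500 to 50000 UMIs, were removed, the lean library held 2456 cells with 27815785 UMIs and a median of 7958 per cell. The obese library held 2289 cells with 28705830 UMIs and a median of 9103. The libraries shared 2 cell barcodes among these cells, and neither barcode held a UMI of the 6 genes.

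Granzymes are serine proteases that cytotoxic T cells and NK cells store in granules and release together with perforin into a target cell. Granzyme B, the best studied of them, cleaves after aspartate and starts apoptosis, whereas the mouse genes Gzmc to Gzmg and Gzmn are rodent relatives next to Gzmb whose targets are less well defined. Gzmc, Gzmd, Gzme, Gzmf and Gzmg are known from activated killer lymphocytes, and Gzmn is known from the testis.

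The 6 genes lie on the minus strand of chromosome 14 between positions 56117626 and 56234656 of GRCm38, the build behind mm10, over 117 kb. Read along the chromosome, the order is Gzme, Gzmd, Gzmg, Gzmn, Gzmf, Gzmc and then Gzmb, whose start is 27.6 kb beyond that of Gzmc. An antisense gene, Gm4022, overlaps parts of Gzmn and Gzmf on the plus strand. Over the annotated transcripts, identity between pairs of the 5 detected genes ran from 76.1% for Gzmc with Gzmg to 94.8% for Gzmd with Gzme. Molecules can therefore be hard to assign where stretches are alike. Among all stretches of 50 bases in the last 300 bases of a transcript, the part nearest to what the kit reads, none of Gzmc, 10.0% of Gzmd, 11.6% of Gzme, 12.7% of Gzmf, 21.9% of Gzmn and 25.1% of Gzmg also occurred in another of the 7 genes. No stretch of 90 bases there was shared. Reads that match more than 1 gene are not counted by the counting software, and values of close relatives are uncertain to that extent.

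The sequence upstream of the start separates the 5 detected genes from Gzmn and from Gzmb. In RefSeq promoter windows of GRCm38.p6, those of Gzmc, Gzmd, Gzme, Gzmf and Gzmg were alike over nearly their whole length, with pairwise identities of 86.1% to 94.0%. The 88 bases printed next lie upstream of each gene's start, 5′ to 3′ on the minus strand, for the 5 alike genes and then for the undetected Gzmn and for Gzmb as the neighbour. Capitals mark a match to TGANNTCA, which is the same letters on both strands.
Gzmc (chr14:56234667-56234754): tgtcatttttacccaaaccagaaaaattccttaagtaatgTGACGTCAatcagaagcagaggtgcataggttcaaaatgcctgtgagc
Gzmf (chr14:56211442-56211529): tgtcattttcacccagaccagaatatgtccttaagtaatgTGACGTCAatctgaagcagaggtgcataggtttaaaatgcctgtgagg
Gzmg (chr14:56159609-56159696): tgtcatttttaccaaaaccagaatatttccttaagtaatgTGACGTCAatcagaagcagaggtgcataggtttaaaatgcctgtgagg
Gzme (chr14:56120640-56120727): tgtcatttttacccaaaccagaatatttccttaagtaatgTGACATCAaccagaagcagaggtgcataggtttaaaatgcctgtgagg
Gzmd (chr14:56132607-56132694): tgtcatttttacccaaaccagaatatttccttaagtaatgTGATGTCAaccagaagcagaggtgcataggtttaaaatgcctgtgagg
Gzmn (chr14:56174614-56174701): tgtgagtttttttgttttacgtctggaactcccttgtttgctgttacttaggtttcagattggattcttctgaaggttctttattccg
Gzmb (chr14:56262349-56262436): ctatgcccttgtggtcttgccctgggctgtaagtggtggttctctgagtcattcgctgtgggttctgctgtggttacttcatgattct
The match began at position -57 from the start in Gzmc, -61 in Gzmd, -62 in Gzme, -77 in Gzmg and -82 in Gzmf. The full palindrome TGACGTCA, the letters of the cyclic AMP response element that CREB and ATF proteins bind, stood in Gzmc, Gzmf and Gzmg, while Gzme had TGACATCA and Gzmd had TGATGTCA in the same place. Letters were searched for in the whole promoter window, which runs beyond the 88 bases printed and for Gzmc covers 56234608 to 56234907. TGANNTCA occurred in 14.1% and TGACGTCA in 1.79% of all 32851 promoter windows, and every TGACGTCA is also counted as TGANNTCA. Neither was found in the window of Gzmn or Gzmb. Gzmb instead held 1 match to TGANTCA, the letters of an AP-1 site, which 7.81% of promoters held. TGTGGT, the core letters that Runx proteins bind, was found on one strand or the other in the 5 detected genes and in Gzmb but not in Gzmn, against 16.8% of all promoters. In the 5 detected genes it lay upstream of the bases printed. TTTAAA, also searched for, was found in 4 of the 5 detected genes and in Gzmn but not in Gzmb, against 13.2% of all promoters. Because the 5 windows are so alike, a match they share is not 5 separate observations, and no enrichment is read from the shares. A match of letters is not a measurement of binding.

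In the lean library Gzmf was the most abundant of the 6 genes, followed by Gzmc, and the other members were far lower. Levels are given as UMIs per 1000000 UMIs (CPM). They count molecules at the 3′ end and need no scaling by gene length. Gzmf had 8088 UMIs, or 291 CPM (95% Poisson interval 284 to 297), in the lean library and 622 UMIs, or 21.7 CPM (19.9985 to 23.4), in the obese library. Gzmc had 5298 UMIs, or 190.5 CPM (185 to 196), and 1583 UMIs, or 55.1 CPM (52.5 to 57.9). These 2 genes held 49.8% and 32.6% of the members' UMIs in the lean library, and their order turned around in the obese library, where Gzmc held 58.5% and Gzmf 23.0%.

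Gzmd, Gzme and Gzmg, which lie together at the far end of the group from Gzmb, were present at lower levels. Gzmd had 1355 UMIs (48.7 CPM) in the lean library and 148 (5.16 CPM) in the obese one. Gzme, the closest relative of Gzmd by sequence, had 1117 UMIs (40.2 CPM) and 350 (12.2 CPM). Gzmd was thus above Gzme in the lean library and below it in the obese library. The intervals did not overlap in either, but they treat UMIs as independent, and few cells held most of them. The 10 highest cells of Gzmd and Gzme held 65.2% and 60.3% of their lean UMIs, and 83.1% of the obese UMIs of each. By cells with a UMI, Gzmd and Gzme were close, at 90 and 83 in the lean and 25 and 30 in the obese library. Gzmg had 390 UMIs (14.02 CPM) in the lean library and 3 (0.105 CPM, interval 0.0216 to 0.305) in the obese library.

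Gzmn, which lies between Gzmg and Gzmf, had 0 UMIs in 2456 lean and 2289 obese cells, which allows a share of up to 0.122% and 0.131% of cells with a UMI and a level of up to 0.108 and 0.105 CPM. It also had none among all deposited cells. The neighbours beyond Gzme on the chromosome were at or near 0 as well. Ctsg, Mcpt1, Mcpt2, Mcpt4, Mcpt9 and Cma2, proteases of mast cells and myeloid cells, had 0 UMIs in both libraries, and Cma1 had 1 UMI in the lean library. Mcpt8, a basophil protease, had 13 UMIs in 12 lean cells and 3 UMIs in 2 obese cells, and each of those cells also held a UMI of the 6 genes.

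**Figure D1:**
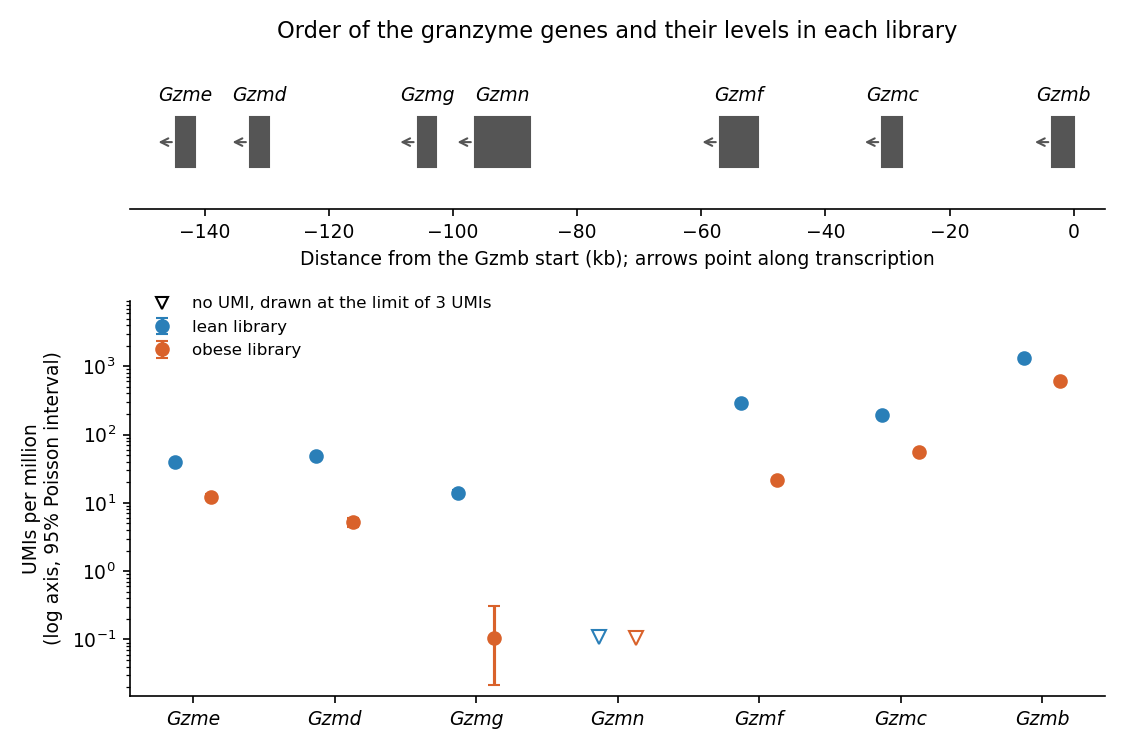
Top, positions of the 6 genes and Gzmb in kb from the Gzmb start. Bottom, level of each gene in CPM on a log axis, with the lean library in blue, the obese library in orange and bars for the 95% Poisson interval. Lean points sit above obese points for every detected gene, from 1311 against 616 CPM for Gzmb to 14.02 against 0.105 CPM for Gzmg, and the open triangles show Gzmn at the limit that 0 UMIs allows.

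All 5 detected members were lower in the obese library, by unequal amounts. On the log2 scale, obese over lean, Gzmc stood at -1.79 (95% exact interval -1.87 to -1.71) and Gzme at -1.72 (-1.90 to -1.55). Gzmd stood at -3.24 (-3.49 to -2.99) and Gzmf at -3.75 (-3.87 to -3.63). These correspond to 3.45-fold for Gzmc, 3.29-fold for Gzme, 9.45-fold for Gzmd and 13.4-fold for Gzmf. For Gzmg the ratio was -7.07 with an interval of -9.35 to -5.51, since the obese library had 3 UMIs. Summed, the 6 genes had 16248 UMIs (584 CPM) in the lean library and 2706 (94.3 CPM) in the obese library, a log2 ratio of -2.63 (-2.69 to -2.57), or 6.20-fold.

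Of 7064 genes with at least 10 CPM in a library, 1.32% were lower in the obese library by 1.5-fold or more and 0.382% by 2-fold or more. The 5 detected members passed both limits, with ranks 1 for Gzmg, 2 for Gzmf, 3 for Gzmd, 9 for Gzmc and 11 for Gzme counted from the lowest ratio. The median log2 ratio of the 5 was that of Gzmd, -3.24, beside 0.035 over all 7064 genes. The genes were chosen with this contrast in view and Gzmg and Gzmd passed the 10 CPM limit through the lean library alone, so nothing is read from these counts. Gzmb, in the same contrast, stood at -1.09 (-1.12 to -1.06) with 36478 lean and 17675 obese UMIs.

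In the obese library fewer cells held a member UMI, and the members' level within those cells was also lower. These measures overlap and are not separate parts of the ratio of the sum. A UMI of at least 1 of the 6 genes was found in 431 lean cells, 17.5% (95% Clopper-Pearson interval 16.1 to 19.1), and in 154 obese cells, 6.73% (5.74 to 7.83), which is 2.61-fold. Within the cells that held one, the members made up 1753 CPM in the lean and 654 CPM in the obese library, which is 2.68-fold. For Gzmf both differences were large, at 4.17-fold for the share of cells and 3.58-fold for the level in them. For Gzme the share of cells differed 2.58-fold and the level in them 1.15-fold.

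Cells with a member UMI were deep, with a median of 19903 UMIs in the lean and 26606.5 in the obese library, against 7297 and 8709 in cells without. Shares were therefore also taken after each cell had been thinned to 2000 UMIs, leaving out 126 lean and 112 obese cells that were shallower. At that depth 10.0% (8.85 to 11.3) of 2330 lean cells and 2.80% (2.15 to 3.58) of 2177 obese cells held a member, 3.58-fold. By gene, 7.04% and 1.06% held Gzmf, 5.71% and 1.93% held Gzmc, 1.502% and 0.505% held Gzme, and 1.42% and 0.367% held Gzmd. Gzmg was held by 8 lean cells and by 0 of 2177 obese cells.

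As a level to set beside free RNA in the droplets, cells of cluster 2, led by Lef1 and Tcf7 and naive or memory-like, were used, since resting cells of that kind should lack these genes. Their median depth was 7467 UMIs in the lean and 7860 in the obese library. Before thinning 2.60% of them held a member in the lean and 0.703% in the obese library, and after thinning 0.347% and 0 of 427 cells. Their summed level was 4.41 CPM in the lean and 0.843 CPM in the obese library.

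The members' UMIs came from few cells. In the lean library 32 cells, 1.30% of all, held 50% of them, and 10 cells held 23.7%. In the obese library 10 cells, 0.437%, were enough for 50%, and 10 cells held 50.5%. At the other end 112 lean and 54 obese cells held a single UMI. A total of 54 lean and 7 obese cells held 100 or more. Leaving out the 1% of cells of each library with the most member UMIs moved the log2 ratio of the sum from -2.63 to -3.69.

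The lean cell with the most member UMIs held 782 of them among 23789, which was 3.29% of its RNA molecules. It held 240 UMIs of Gzmg, 189 of Gzmd, 154 of Gzmc, 101 of Gzme and 98 of Gzmf, beside 128 of Gzmb, 87 of Prf1, 13 of Cd8a and 19 of Cd3e. Its 240 were most of the library's 390 UMIs of Gzmg, whose 10 highest cells held 98.5% of its UMIs. The next lean cell held 556, with 263 of Gzmd and 200 of Gzme but 0 of Gzmf. The obese cell with the most held 239, of which 198 were Gzmc and 40 Gzmf, with 0 of Gzmd.

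**Figure D2:**
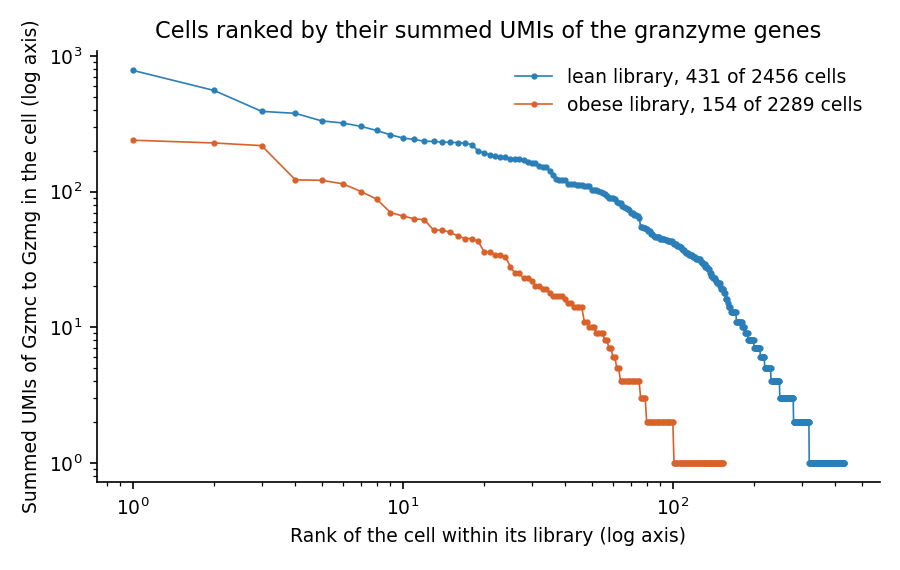
Cells with a UMI of the 6 genes, ranked within their library from the highest summed count, with rank and summed UMIs on log axes. The lean curve (blue, 431 of 2456 cells) lies above the obese curve (orange, 154 of 2289 cells) at every rank, starting at 782 against 239 UMIs.

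The 5 detected genes were found together in a nested order. Only 1 member was detected in 249 of 431 lean cells (57.8%) and in 99 of 154 obese cells (64.3%). Among these were the 112 lean and 54 obese cells with a single member UMI, which can show no more than 1 gene. The shares thus depend on low counts, and nothing is read from them about cells that make only 1 member. The cells with 1 member detected held 10.8% of the members' UMIs in the lean and 21.8% in the obese library, while the 53 lean cells with 4 or 5 members (40 and 13) held 32.9% and 19.4%. The single gene was usually Gzmc, in 134 lean and 75 obese cells, or Gzmf, in 104 lean and 16 obese cells.

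Gzmc and Gzmf were the broad members, and the other 3 were found mostly within cells that held them. Of 90 lean cells with Gzmd, 85.6% (76.6 to 92.1) also held Gzmc and 80.0% held Gzmf. In the 2366 lean cells without Gzmd these shares were 9.68% and 8.50%. Of 306 cells with Gzmc 25.2% (20.4 to 30.4) held Gzmd. The same 77 cells stand behind the 85.6% and the 25.2%, so the gap between them only reflects that Gzmc was found in more cells. Of 83 lean cells with Gzme, 85.5% held Gzmc and 74.7% held Gzmd. All 14 lean cells with Gzmg held Gzmc, Gzmd and Gzme, and 13 of them held Gzmf. The 2 obese cells with Gzmg likewise held Gzmc, Gzmd and Gzme.

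The same order was seen in the obese library over fewer cells, with Gzmc in 84.0% (63.9 to 95.5) of 25 cells with Gzmd and Gzmd in 16.5% of 127 cells with Gzmc. The order was also seen at equal depth in the lean library. There 66.7% (48.2 to 82.0) of 33 cells with Gzmd held Gzmc and 87.9% held Gzmf. Of the 2297 thinned lean cells without Gzmd, 4.83% held Gzmc. Gzmd was held by 16.5% (10.7 to 23.97) of 133 cells with Gzmc. Here too the gap between the shares of a pair only reflects that Gzmc was found in more cells. In the obese library only 8 thinned cells held Gzmd, of which 3 held Gzmc.

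Gzmc and Gzmf, the commonest pair, were often found apart. Of 306 lean cells with Gzmc 52.3% held Gzmf, and of 127 obese cells 33.1% (24.98 to 42.0) did. In cells without Gzmc the share with Gzmf was 5.26% in the lean and 0.879% in the obese library.

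Across cells, the correlation of log-normalised levels was highest for Gzmd with Gzme, at 0.85 over 2456 lean and 0.66 over 2289 obese cells. For Gzmd with Gzmg it was 0.61 and 0.34, and for Gzmc with Gzmf 0.53 and 0.42. Only 14 lean cells held Gzmg, and 2 obese cells with 3 UMIs between them, so every value of Gzmg rests on those cells. With Gzmb the 5 genes ran from 0.10 for Gzmg to 0.37 for Gzmc in the lean library and from 0.05 to 0.27 in the obese library. These values share library, depth and many cells at 0, and for Gzmd with Gzme also the alike sequence, so they describe the cells only.

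**Figure D3:**
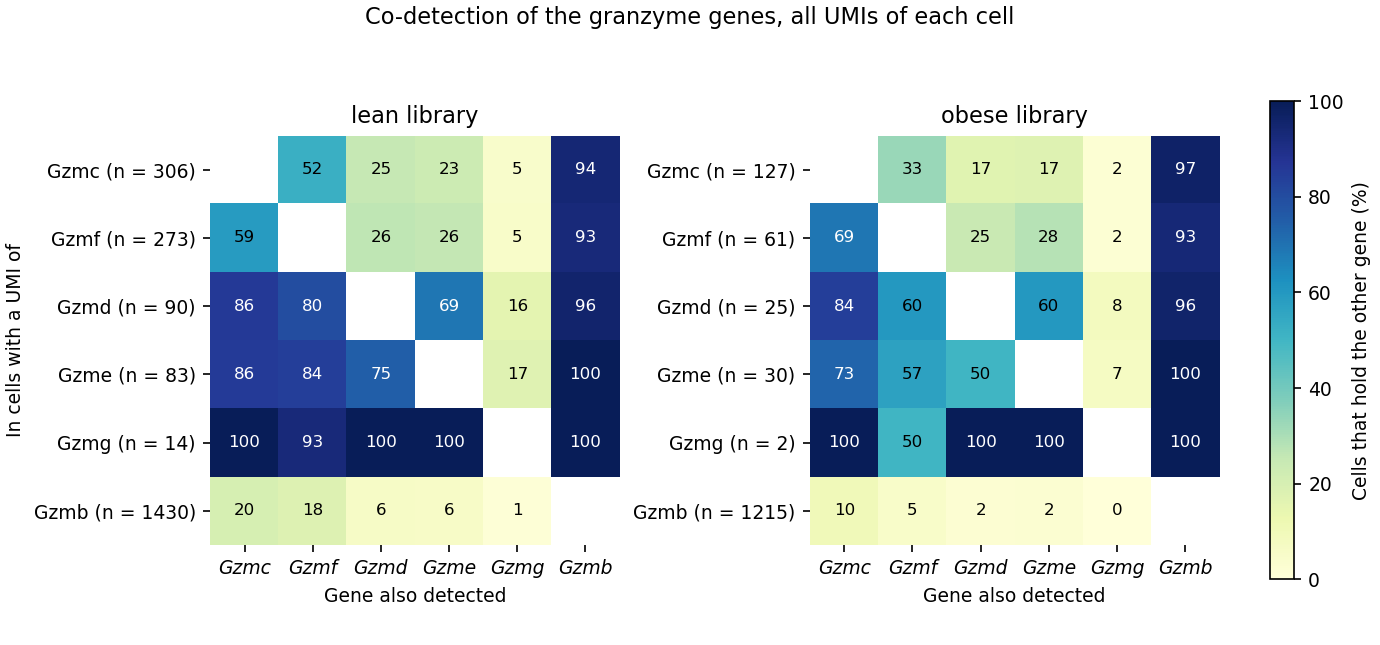
Percentage of cells with a UMI of the gene in the row (number of cells in brackets) that also held the gene in the column, before thinning, for the lean library on the left and the obese library on the right. The rows of Gzmd, Gzme and Gzmg are dark under Gzmc, from 85.5% to 100% in the lean library, while the row of Gzmc is pale under Gzmd, at 25.2%, and the column of Gzmb is dark throughout.

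Within single cells the balance of relatives varied far beyond counting error. In the 147 lean cells with at least 20 UMIs of Gzmf and Gzmc together, Gzmf made up 61.5% of the pair when pooled. Cell by cell it ran from 0% to 100%, with a median of 80.0%. In 54 of these cells it was 90% or more, in 27 it was 10% or less, and 66 lay between. The exact interval of 129 of the 147 cells did not contain the pooled share. In the obese library 30 cells met the limit with a pooled share of 28.3%. Of them 6 were at 90% or more and 14 at 10% or less, and 27 intervals did not contain the pooled share.

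Gzmd and Gzme were more evenly matched. In 27 lean cells with at least 20 UMIs of the pair, Gzmd made up 55.7% when pooled, with a range of 9.52% to 92.3%, and 13 intervals did not contain that share. In 9 obese cells it was 29.9%, from 7.41% to 66.7%, with 4 such intervals. Both genes were detected in each of these 27 and 9 cells, whereas Gzmc was at 0 in 19 and Gzmf in 21 of the 147 lean cells of the other pair.

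In most cells rich in the members, 1 gene held the greater part. Among 150 lean cells with at least 20 member UMIs, Gzmf led in 100, Gzmc in 43, Gzmd in 4, Gzme in 2 and Gzmg in 1. Among 32 obese cells Gzmc led in 20, Gzmf in 8, Gzme in 3 and Gzmd in 1. The leading gene held a median of 82.3% of a cell's member UMIs in the lean and 76.3% in the obese library.

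**Figure D4:**
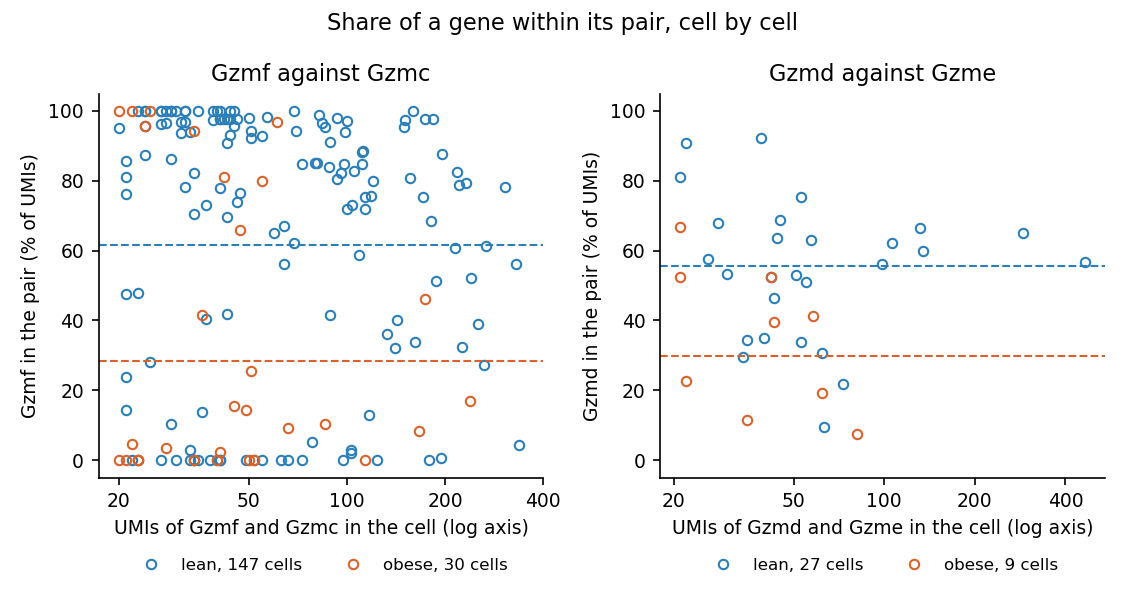
Each circle is a cell with at least 20 UMIs of a pair, placed by the pair's UMIs (log axis) and by the percentage of the first gene, with lean in blue, obese in orange and the pooled share as a dashed line. Gzmf against Gzmc (147 lean and 30 obese cells) spreads to both 0% and 100%, and Gzmd against Gzme (27 and 9 cells) keeps between 7.41% and 92.3%.

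The members were found mainly in cells that also made granzyme B. At equal depth 88.9% (84.1 to 92.6) of the 234 lean cells with a member held Gzmb, against 41.5% (39.4 to 43.7) of the 2096 cells without. In the obese library it was 85.2% (73.8 to 93.0) of 61 cells against 32.7% (30.7 to 34.7) of 2116. Turned around, 19.3% (16.98 to 21.8) of the 1078 lean and 6.99% (5.26 to 9.06) of the 744 obese cells with Gzmb held a member, so most cells with Gzmb had none detected.

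Pooled over all thinned cells, the share with a member was higher with each class of Gzmb count. In lean cells with 0, 1 to 2, 3 to 5 and 6 or more Gzmb UMIs after thinning, 2.08%, 10.3%, 19.0% and 40.4% (33.9 to 47.0) held a member. In obese cells of the same classes the shares were 0.628%, 4.64%, 9.29% and 14.9% (8.20 to 24.2). The obese share was below the lean share in each of the 4 classes. The intervals count cells within 1 library of each group, and the members were chosen with this contrast in view, so nothing is read from their spacing. Over all kept cells there were 44.5 member UMIs for every 100 Gzmb UMIs in the lean and 15.3 in the obese library. In 123 lean and 29 obese cells the members outnumbered Gzmb.

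**Figure D5:**
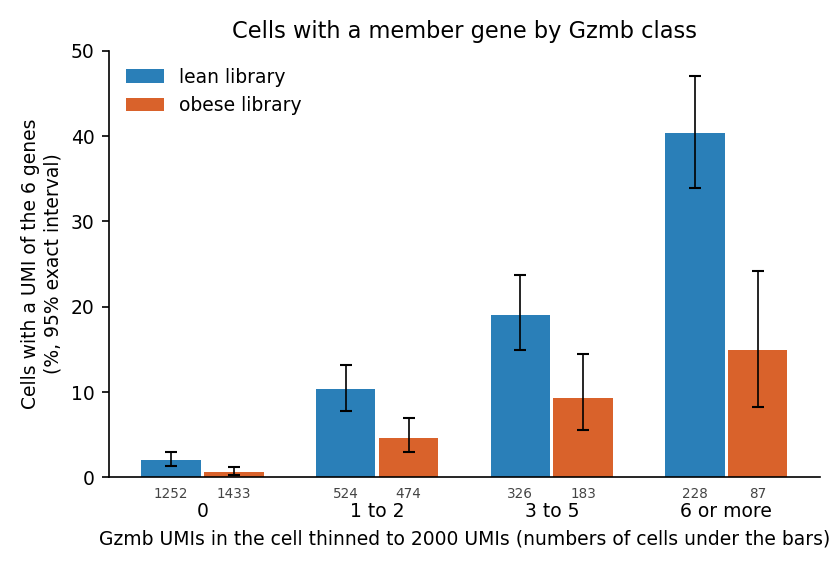
Percentage of cells with a UMI of the 6 genes in classes of Gzmb UMIs, each cell thinned to 2000 UMIs, with lean bars in blue, obese bars in orange and 95% Clopper-Pearson intervals. The lean bars climb from 2.08% to 40.4% and the obese bars from 0.628% to 14.9%.

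Other granule proteins were found with the members to differing degrees, and for some of them the depth mattered. Prf1, which encodes perforin, was held by 67.5% (61.1 to 73.5) of thinned lean cells with a member and 26.1% without, and by 55.7% and 16.2% in the obese library. Gzma, a tryptase granzyme of another locus, was at 0.855% (0.104 to 3.05) with and 5.25% (4.33 to 6.29) without in the lean library. In the obese library it was 1.64% and 5.01%, over only 61 cells with a member. Before thinning the shares with Gzma were close, at 7.66% with and 8.05% without a member in the lean and 8.44% and 10.1% in the obese library. Gzmm was held by none of 234 lean and 61 obese cells with a member, and by 2.77% and 2.55% of those without. Gzmk was close in lean cells, at 12.4% and 11.1%, and lower with a member in obese cells, at 4.92% (1.03 to 13.7) against 18.0% (16.3 to 19.7). Before thinning Gzmk was found more often with a member in both libraries, at 53.8% against 24.8% in the lean and 51.3% against 39.3% in the obese, so the direction for obese cells turned with the depth.

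To place the members among states of CD8+ T cells, cells were grouped with all granzyme genes left out of the clustering, which gave 6 clusters. Among those with at least 50 cells of each library, the summed members were highest in cluster 3, led by Penk, Cd81, Lgals3, AA467197 and Ccl1 beside the members themselves. They stood there at 1079.6 CPM (1057 to 1102) in the lean and 288 CPM (272 to 303) in the obese library. Cluster 1, proliferating-like with Pclaf, Birc5 and Stmn1, came next with 607 and 91.0 CPM. These 2 clusters held 55.2% and 42.8% of the lean members' UMIs and 49.96% and 47.6% of the obese. Cluster 0, interferon-stimulated-like and led by Ifit3, Gzma, Ifit3b and Ifit1, also had Isg15 and Ccl5 among its top genes. The members stood there at 5.07 and 0.780 CPM, close to the naive or memory-like cells. Gzmb stood at 535 and 448 CPM in cluster 0, so Gzmb was also found where the members were near that level. Cluster 3 held 25.3% of lean and 13.3% of obese cells, and cluster 1 held 19.5% and 25.5%. Cluster 0 held 18.9% and 30.8%, and cluster 2 held 23.5% and 18.7%. The part of this difference in cell mix in the ratios over all cells was not tested.

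Within both of the rich clusters the members stood lower in the obese library. In cluster 3 the log2 ratio of the sum was -1.91 (-1.99 to -1.83), and in cluster 1 it was -2.74 (-2.82 to -2.65). In cluster 3 Gzmc stood at -0.98, Gzme at -0.81, Gzmd at -2.41, Gzmf at -3.05 and Gzmg at -5.97. In cluster 1 Gzmc stood at -1.98, Gzme at -2.08, Gzmd at -3.54 and Gzmf at -3.95, and Gzmg had 59 lean and 0 obese UMIs. All 5 tested members in cluster 3 and all 4 in cluster 1 were lower by at least 1.5-fold, where 3.08% and 1.82% of the genes tested in those clusters were. The members were chosen with this contrast in view, and Gzmg in cluster 3 and Gzmd and Gzme in cluster 1 passed the 10 CPM limit through the lean library alone, so nothing is read from these counts either. The order of Gzmf and Gzmd below Gzmc and Gzme was the same in both.

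At equal depth 18.0% (15.1 to 21.3) of lean and 6.91% (4.33 to 10.4) of obese cells of cluster 3 held a member, and 20.9% (17.3 to 24.8) and 6.01% (4.22 to 8.26) of cluster 1. Cluster 4, shallow cells with a median of 2314 UMIs that were left unnamed, had 123 and 68.7 CPM. There the 2 members with at least 10 CPM in a library, Gzmc (in the lean library alone) at -1.93 and Gzmf at -0.78, were lower by 1.5-fold, as were 13.0% of genes in it. Gzmd with 4 lean and 5 obese UMIs and Gzme with 2 and 3 had intervals that spanned 0.

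Cells were also ranged by their member UMIs per 10000 UMIs, as ranges of a continuous level and not as types: none, under 5, 5 to 20, and 20 or more. The top range held 103 lean and 16 obese cells, of which 15 and 2 lay within 25% above its lower limit, and it held 82.8% and 58.8% of the members' UMIs. Gzmb stood higher in each range, from 726 through 1814 and 2912 to 3588 CPM in the lean library and from 461 through 1192 and 2001 to 3114 CPM in the obese library. Prf1 stood at 255 CPM in the lowest and 1051 CPM in the top range of lean cells, and at 110.3 and 935 CPM in obese cells. In every range the ratio of the libraries in Gzmb was smaller than over all cells (1311 and 616 CPM), and it was smallest in the top range.

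Of the markers of resting or memory cells, Tcf7 and Il7r were read in these ranges, and both stood lowest where the members were high. Tcf7, a transcription factor of naive and stem-like T cells, was at 82.0 CPM in lean cells without a member and 5.63 CPM in the top range, and at 63.2 CPM and 0 UMIs in obese cells. Il7r, the receptor for interleukin 7, was at 123 and 25.5 CPM in lean cells and 107.4 and 12.8 CPM in obese cells. Gzma was at 153 and 7.36 CPM in lean cells and at 93.7 CPM and 0 UMIs in obese cells. Of the inhibitory receptors, Havcr2 (Tim-3) was at 71.3 and 193 CPM in lean and 45.2 and 144 CPM in obese cells. Pdcd1 (PD-1) was at 169 and 305 CPM in lean and 127 and 367 CPM in obese cells. Lag3 differed less in lean cells, at 258 and 302 CPM, than in obese cells, at 140.2 and 293 CPM. Tox, a transcription factor of chronically stimulated T cells, was at 101 and 105 CPM in lean cells and at 129 and 66.8 CPM in obese cells, the last from 26 UMIs. In the ranges between, Tox was higher than without a member, at 122 and 113 CPM in lean and 149 and 158 CPM in obese cells. Ifng, the gene of interferon-γ, was at 524 and 773 CPM in lean cells and at 502 and 526 CPM in obese cells, with 16 obese cells behind the last value. In the ranges between, Ifng was at 638 and 735 CPM in lean and 614 and 915 CPM in obese cells. Mki67 and Top2a, genes of proliferating cells, and Gzmk stood higher in the top range than without a member in lean cells but lower in obese cells. Mki67 was at 91.7 and 129 CPM in lean and 125 and 77.0 CPM in obese cells, the last from 30 UMIs. Top2a was at 171 and 281 CPM in lean and 243 and 175 CPM in obese cells, the last from 68 UMIs. In the obese ranges between these, Mki67 stood higher than without a member, at 161 and 240 CPM. So did Top2a, at 405 and 379 CPM. The lower obese values of Mki67 and Top2a were thus confined to the 16 cells of the top range. Gzmk was at 62.7 and 80.5 CPM in lean and 100.5 and 43.6 CPM in obese cells.

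All 7 markers of CD8 T cells were detected in every range. The 7 of them, Cd8a, Cd8b1, Lck, Trac, Cd3g, Cd3e and Cd3d, summed to 5889, 6153, 6443 and 6521 CPM along the lean ranges and to 5293, 5092, 5892 and 6352 CPM along the obese ranges. The single markers did not move alike, and in lean cells Cd3g stood at 1603 CPM without a member and 2123 CPM in the top range, while Cd8b1 stood at 804 and 689 CPM, Trac at 635 and 555 CPM and Lck at 319 and 257 CPM, with intervals apart for each. All 8 markers of NK cells had a UMI in lean cells without a member and 7 of 8 in the top range, with sums of 139 and 267 CPM. In obese cells 6 and 3 of 8 had one, with sums of 131 and 115.5 CPM. In lean cells Fcer1g, a signalling adaptor on this list, stood at 20.7 and 87.0 CPM. The receptor gene Klre1 stood at 61.9 and 119 CPM. In obese cells Fcer1g went the other way, at 21.2 and 2.57 CPM, the last from 1 UMI. Klre1 was higher in the top range there as well. The part of Fcer1g and Klre1 in the result was not tested. The defining Ncr1 was at 0.162 CPM in lean cells without a member and 2.60 CPM in the top range, from 3 and 6 UMIs. The 6 UMIs lay in 0.971% of the cells of that range. Klra4 went the same way, at 0.162 and 3.90 CPM, from 3 and 9 UMIs. In the lean ranges between, Ncr1 was at 0.396 CPM and 0 UMIs, and Klra4 at 3.17 CPM and 0 UMIs. Both had 0 UMIs in the obese ranges. Klrb1c stood lower in the top range in lean cells, at 3.02 and 0.433 CPM, as did Eomes, at 31.4 and 26.4 CPM. Klra8 did too, at 0.324 CPM and 0 UMIs. Klrb1c had 0 UMIs in the middle and top obese ranges, where 0 UMIs allow up to 3.62 and 7.70 CPM. Of the 6 mast cell markers Mcpt4, Tpsb2 and Fcer1a had 0 UMIs in every range, and Cpa3 and Cma1 had 1 UMI each, both in cells without a member. Kit, a growth factor receptor on the same list, stood at 3.83 and 17.3 CPM in lean and 2.12 and 20.5 CPM in obese cells. Sums for CD4 T cells, melanoma, myeloid and B cells were no higher in the top range than in cells without a member. The 3 gamma-delta T cell genes summed to 27.0 and 21.6 CPM in lean and to 21.8 and 5.13 CPM in obese cells, the last from 2 UMIs. In the ranges between, they summed to 26.2 and 15.7 CPM in lean cells. In the obese ranges between, they stood higher than without a member, at 44.9 and 33.8 CPM. Of the 2 basophil markers Prss34 had 0 UMIs, and Mcpt8 was as given above.

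The genes whose level across cells was most like that of the 6 members summed, ranked by the lower of the correlations in the 2 libraries among 8434 genes, were AA467197, Prf1, Serpine2, Serpinb6b, Tnfrsf9, Gzmb, Serpinb9, Anxa2, Tubb6 and Gldc. AA467197 had 0.50 over the lean and 0.46 over the obese cells, Prf1 0.40 and 0.36, and the tenth, Gldc, 0.27 and 0.33. Serpinb6b, Serpinb9 and Serpine2 encode serpins, which inhibit serine proteases, and Tnfrsf9 encodes the costimulatory receptor 4-1BB. AA467197 stood at 130.3 CPM in the lean and 33.2 CPM in the obese library.

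Genes of the granule machinery were read from a list of 20 genes, set with earlier results of these data known, all of which reached 10 CPM. Their median log2 ratio was -0.20 beside 0.035 over all genes tested. By 1.5-fold or more 4 were lower and none higher, where 1.32% and 1.66% of all genes were. Of the 4, Serpinb9b passed the 10 CPM limit through the lean library alone. The list was also set with earlier results known, so nothing is read from these counts. The 4 were Prf1 at -1.29 (-1.34 to -1.24) and the serpins Serpinb9b at -2.83, Serpinb9 at -0.96 and Serpinb6b at -0.64, of which Serpinb9 is the inhibitor of granzyme B. The other granzymes outside the locus differed less between the libraries than the members did, with Gzma at -0.38 (-0.46 to -0.30), Gzmm at -0.13 (-0.36 to 0.11) and Gzmk at 0.45 (0.37 to 0.54). Genes that load, move or release granules were among the 16 that differed by less than 1.5-fold, such as Srgn, the granule proteoglycan, at -0.10, Rab27a, which docks granules, at -0.28 and Lamp1, a granule membrane protein, at 0.08.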

How the data were processed

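Single-cell RNA was measured in CD8+ TIL, with 1 lean and 1 obese library. The authors aligned the reads and counted UMIs with Cell Ranger 6.0.2 against mm10, per the labels, and deposited raw counts for each gene and cell, which name no build of their own. Cells were kept by the limits in the study's methods (mitochondrial genes under 7.5% of UMIs, more than 500 and fewer than 50000 UMIs), which left out 241 lean and 334 obese cells. The deposited tables hold 2697 lean and 2623 obese barcodes, which are the cell numbers the methods give as analysed after quality control, so the cells left out here were part of the set analysed in the study. Doublets were not called. The members and all lists were chosen with earlier results of these data known.

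UMIs of a gene were added up over the cells of a library and scaled to its total (CPM). With 1 library in each group no test was run. Levels carry exact Poisson intervals, shares Clopper-Pearson intervals and ratios exact binomial intervals conditional on the summed count, all at 95%, and a count of 0 a limit of 3 UMIs or cells. Comparisons across genes used those with at least 10 CPM in 1 library. Thinning drew 2000 UMIs from each cell without replacement, once, with a fixed seed. Clusters came from Seurat 5.3.0 in R 4.3.3, both libraries together, on 2000 variable genes without granzymes, 20 principal components, 20 neighbours and resolution 0.15, chosen to give 6 clusters. They are rebuilt here and need not match those of the study. The limit of 50 cells of each library on the highest cluster was set after the values were seen. Correlations were Pearson's on ln of 1 + UMIs per 10000. The ranking of genes most and least like the members used genes in at least 5% of cells of each library. Correlations between granzyme genes had no such limit. Named genes were the members, the locus, the granule list, the 10 most alike genes, and fixed state and cell type markers. Gene positions came from GENCODE for GRCm38, and promoters from RefSeq for GRCm38.p6, where all 7 granzyme genes printed were matched. The intervals of ratios were tested on simulated counts drawn independently from Poisson distributions, and thinning on simulated cells. Such counts are not gathered in few cells as the members' UMIs were, so that setting was not tested. Python 3.11.15, numpy 2.4.6 and scipy were used elsewhere. Alternatives covered the scaling, the thinning, the choice of cells and the clustering.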

Additional observations from a re-analysis of the deposited data

Results flagged for a closer look

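Cells with 50000 or more UMIs, which the filter leaves out, held the members at a higher level than the cells that were kept. In the lean library 83 such cells carried 9260 member UMIs, 36.2% of all those deposited, at 1610 CPM (95% Poisson interval 1577 to 1643) against 584 CPM in kept cells, and 88.0% of them held a member. In the obese library 121 such cells carried 1997 member UMIs, 42.1% of those deposited, at 209 CPM (200 to 218) against 94.3 CPM, and 57.0% of them held one. These values were singled out because they come from cells outside the comparisons above. Gzmb stood at 2358 and 772 CPM in the same cells. Gzmg had 260 UMIs in the lean and 20 in the obese cells of this kind, the latter against 3 in all kept obese cells. Whether a barcode this deep holds 1 cell or more was not tested.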

How the results depend on the processing

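The summed members stayed lower in the obese library under every alternative run, and so did each of the 5 detected genes. The log2 ratio of the sum was -2.75 as a mean over cells, and -2.80 and -2.75 with each cell thinned to 2000 and 1000 UMIs. In cells that held Cd8a or Cd8b1 and no UMI of Cd4, Cd79a, Lyz2 or Pmel it was -2.69. Markers of NK, gamma-delta T, mast, basophil and dendritic cells were not used in that choice of cells. The ratio was -2.96 without the 5% of cells with the most UMIs and -3.69 without the 1% with the most member UMIs. By gene the values ran from -2.68 to -1.77 for Gzmc, -4.20 to -2.83 for Gzmd, -3.39 to -1.02 for Gzme, -4.91 to -3.30 for Gzmf and -8.57 to -5.02 for Gzmg. The thinned values and the value without the 1% could not be had for Gzmg, whose obese count was then 0. The difference in the share of cells with a member, obese minus lean, was -7.24 percentage points, -10.8 without thinning and -5.31 when 2 UMIs were required. The excess of Gzmb in cells with a member was 47.4 points in the lean and 52.5 in the obese library. It was 39.97 in the lean library without thinning and 37.2 in the obese library without the 5% of cells with the most UMIs. The level in the highest cluster, as the mean of both libraries, was 684 CPM, 854 CPM at resolution 0.8 and 829 CPM when small clusters were let in. The 829 CPM was that of cluster 5, at 1658 CPM in the lean and 0 in the obese library. All 199 member UMIs of that cluster lay in 1 of its 9 lean cells. Of 7064 genes with at least 10 CPM in a library, 93 (1.32%) were lower by 1.5-fold and 27 (0.382%) by 2-fold. With TMM scaling factors 111 were lower by 1.5-fold. The count was 32 at 50 CPM or more and 1368 with any gene that had a UMI in each library. These limits change how many genes are tested, so those counts cannot be set beside the 93. The cause of the other shifts was not tested. Leaving out clusters 4 and 5, or the cells with shared barcodes, which were alternatives chosen after seeing the data, kept the sum within its interval. No paired analysis was possible because each group had 1 library. With all deposited cells the sum stood at -2.63, Gzmd at -2.88, Gzmf at -3.30 and Gzmg at -5.02. Gzmg rested on 3 and Gzmd on 148 UMIs in the obese library.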

Other observations

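A small group of 30 cells, cluster 5, led by Tyrobp, Siglech and H2-Aa and dendritic-like, held members in 1 of its 9 lean cells and in none of its 21 obese cells. That cell had 33967 UMIs, of which 199 were of the members, 16 of Siglech and 7 of Cd3e. Cells with 7.5% or more mitochondrial UMIs, which the filter leaves out, held a member in 13 of 158 lean cells (8.23%) and in 10 of 213 obese cells (4.69%). The genes whose level across cells ran most against the members were Malat1, at -0.24 in the lean and -0.21 in the obese library, then Btg1, Junb, Arl4c and Zfp36l2. Btg1 and Zfp36l2 are known for keeping T cells at rest.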
